A study of Mus musculus with 12 samples.

Results

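The phagocyte NADPH oxidase is the enzyme complex with which neutrophils and macrophages make superoxide. A membrane cytochrome, built from gp91phox (gene Cybb) and p22phox (gene Cyba), carries electrons from NADPH to oxygen. It becomes active when cytosolic subunits, among them p47phox (Ncf1) and p40phox (Ncf4), and a GTP-bound Rac protein (Rac1 or Rac2) dock on it at the membrane. Cybb is the electron-carrying subunit, and loss of it in humans gives X-linked chronic granulomatous disease. In the marrow the complex is built up as granulocyte and monocyte precursors mature.

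These 6 genes, chosen by their symbols, were followed among 51912 genes of 1 count table, and all 6 passed the filter on low counts that left 16360 genes for testing. Other subunits of the complex were not analysed here.

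The table covered 12 RNA-seq libraries of lineage-negative bone marrow cells from C57BL/6 mice, with 3 biological replicates, lettered A, B and C, in each of 4 groups. Cells carried retroviral vectors for both mutants together (CEBPA V314VW + CSF3R T618I), for CSF3R T618I alone, for CEBPA V314VW alone, or an empty vector. CSF3R binds G-CSF, the cytokine that drives neutrophil production, and T618I is an activating change in it that leukemias carry. CEBPA is a transcription factor that granulocyte formation requires, and V314VW is a change near its C-terminal end. All groups were grown in DMEM with serum, SCF, IL-6, IL-3 and WEHI-conditioned medium, and all were sorted for the vectors' fluorescent markers and the absence of lineage antigens. Mutant protein came from a vector rather than from the cell's own gene, the labels name no other engineered change, and they give no age of the mice. They do not say whether libraries of equal letter came from the same animal or culture.

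Libraries held between 44210071 and 67431235 counts, so even the lowest member value, Cybb in a CEBPA V314VW library, rested on 513 reads. Levels are given as CPM, counts scaled to a library of 1000000, with library sizes adjusted by the TMM method. Since RNA came from whole populations, fewer cells of a type and less RNA per cell cannot be told apart. The label of lineage-negative cells was checked against marker lists: 8 B cell markers summed to 5.69 to 15.04 CPM, 7 T and NK cell markers to 54.95 to 372 CPM (highest with empty vector), and 10 stem and progenitor markers to 397 to 1091 CPM over the 12 libraries. Neutrophil markers were present as well, at summed levels that are given with Cybb below.

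On mm10, Cybb lies at chrX:9435252-9487771 (minus strand) and Cyba at chr8:122424776-122432930 (minus strand). Ncf1 lies at chr5:134220053-134229625 (minus strand) and Ncf4 at chr15:78244801-78262580 (plus strand). Rac1 lies at chr5:143503634-143528036 and Rac2 at chr15:78559167-78572783, both on the minus strand. All are protein-coding, and counts were taken over their exons as annotated. Exons of Rac1 share 2309 bases with Daglb on the other strand, a gene with 22661 counts over all libraries. Exons of Ncf1 share 408 bases with Gtf2ird2, also on the other strand, which had 6153 counts. Whether counting used strand is not given in the sources used here, so the levels of Rac1 and Ncf1 are uncertain: reads of the shared bases may have been added or dropped, and how many was not measured. Rac1 and Rac2 code for closely similar proteins, and the treatment of reads that match both is not given either.

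Promoter sequences were at hand for 3 of the 6 members, Cybb, Cyba and Ncf1. In the 300 bases from 250 before to 50 after the RefSeq start, matches on either strand were sought to GAGGAA, a core bound by ETS factors such as PU.1, to TTCNNNGAA, bound by STAT factors, and to TTNNGNAA, a short CEBP half-site pair. PU.1 is a known activator of Cybb, STAT factors act downstream of CSF3R, and CEBP motifs are those CEBPA binds, which is why these promoters are shown. The 150 bases from 130 before the start to 20 after it are printed from RefSeq (GRCm38.p6) in the direction of transcription, for the 2 genes that held a match, with the match in capitals.
Cybb, chrX:9469305-9469454, minus strand: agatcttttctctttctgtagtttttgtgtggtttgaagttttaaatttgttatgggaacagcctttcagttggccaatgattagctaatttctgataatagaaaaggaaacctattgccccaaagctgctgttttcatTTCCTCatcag
Ncf1, chr5:134229606-134229755, minus strand: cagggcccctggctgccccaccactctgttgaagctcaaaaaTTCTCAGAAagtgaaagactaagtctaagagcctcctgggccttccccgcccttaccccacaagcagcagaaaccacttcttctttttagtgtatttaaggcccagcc
Cybb held GAGGAA once, read on the strand opposite to transcription, just after the start. Only this exact run was sought, so other sequences that ETS factors may bind were not marked. Ncf1 held TTCNNNGAA once, as a palindrome upstream of the start. Cyba held a match to none of the 3 motifs. Among 32851 RefSeq promoters of the same length, 28.3% held GAGGAA, 8.30% held TTCNNNGAA and 40.7% held TTNNGNAA. A match is a run of letters and not a measured binding site.

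Per kilobase of exon, the subunits stood at very different levels, and the order was nearly the same in every group. Cyba was highest and Cybb lowest in 12 of 12 libraries. With both mutants Cyba averaged 283.9 ± 13.9 CPM per kb and Cybb 14.2 ± 0.178 (SD, n = 3). With CSF3R T618I the same genes averaged 491.0 ± 148 and 41.2 ± 21.4 CPM per kb (SD, n = 3). Both genes were at their highest in that group. CEBPA V314VW libraries averaged 224.7 ± 6.36 CPM per kb for Cyba and 2.46 ± 0.608 for Cybb (SD, n = 3). Empty vector libraries averaged 283.6 ± 24.4 CPM per kb for Cyba and 6.71 ± 2.58 for Cybb (SD, n = 3). Transcripts of the 2 chains of the cytochrome were far from equal in each group. Between those extremes came Rac2, Rac1, Ncf1 and Ncf4, in that order in 3 of 4 groups. In CSF3R T618I libraries Rac1, Ncf4 and Ncf1, at 99.1 ± 6.81, 96.6 ± 4.79 and 85.3 ± 17.8 CPM per kb (SD, n = 3), overlapped one another. Ncf1 and Ncf4 also overlapped in CEBPA V314VW libraries, at 36.9 ± 3.26 and 31.4 ± 3.72 CPM per kb (SD, n = 3). All other neighbours in the order were apart in their 3 libraries.

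**Figure D1:**
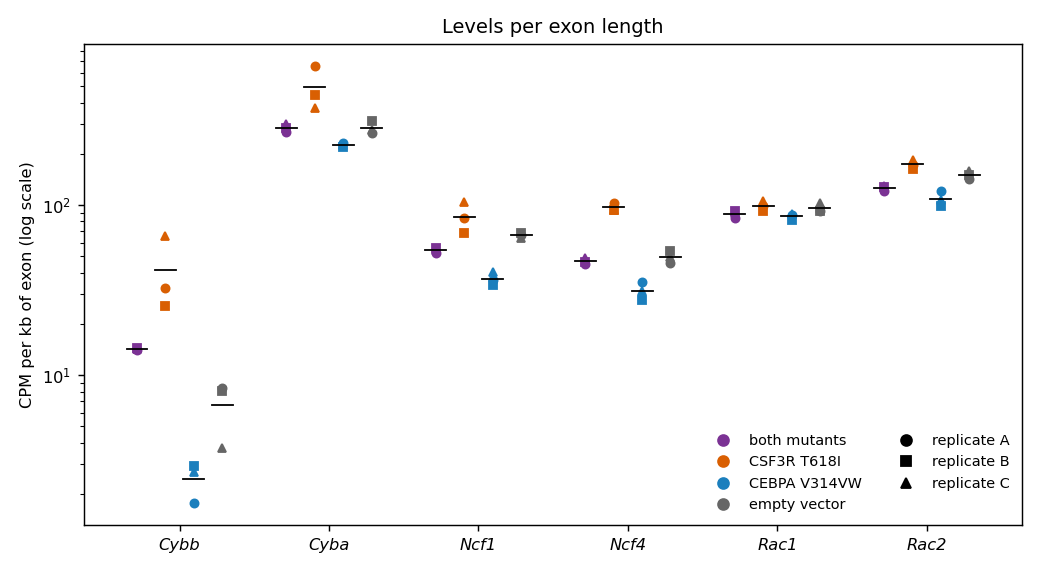
CPM per kb of exon, on a log scale, for the 6 subunit genes in both-mutant, CSF3R T618I, CEBPA V314VW and empty vector libraries; each marker is 1 library and each bar a group mean. Cyba is the highest and Cybb the lowest member in all 12 libraries, and Cybb spans the widest range.

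Cybb was the member whose transcript moved most. It stood at 81.4, 83.4 and 82.1 CPM in both-mutant libraries A, B and C. CSF3R T618I libraries had 189.6, 148 and 381 CPM. CEBPA V314VW libraries had 10.3, 17.0 and 15.6 CPM, and empty vector libraries 48.6, 46.6 and 21.7 CPM. No 2 groups overlapped, and the mean with CSF3R T618I was 16.8 times that with CEBPA V314VW. CSF3R T618I libraries also varied most among themselves, with replicate C 2.58 times replicate B, while both-mutant libraries lay within 1.03 times of one another.

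Against empty vector, CSF3R T618I raised Cybb 6.14-fold (log2 fold change 2.62, SE 0.363, adjusted p = 0.00021). Without CSF3R T618I replicate C, the highest library, the log2 fold change was 2.11 (adjusted p = 9.1e-05; 9.1e-05 to 0.00116 over single libraries left out). CEBPA V314VW lowered it, with a log2 fold change of -1.45 (SE 0.355, adjusted p = 0.0122). That call was lost without CEBPA V314VW replicate A (log2 fold change -1.27, adjusted p = 0.0577; 0.0011 to 0.0577 over single libraries left out) and with no filter on low counts (adjusted p = 0.0878). On the CEBPA V314VW background, CSF3R T618I raised Cybb 5.77-fold (log2 fold change 2.53, SE 0.365, adjusted p = 0.000311). On the CSF3R T618I background, CEBPA V314VW lowered it too (log2 fold change -1.54, SE 0.349, adjusted p = 0.00785), a call lost with no filter on low counts (adjusted p = 0.064). Without CSF3R T618I replicate C that fold change was -1.03 (adjusted p = 0.00971). The groups of each of these pairs share libraries with the next, so the 4 values are not independent.

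With both mutants Cybb stood above empty vector in 3 of 3 libraries, 2.11-fold in the fit (log2 fold change 1.08, SE 0.347, adjusted p = 0.0424). This call was the weakest of the Cybb calls: it was lost without any filter (adjusted p = 0.197), and without empty vector replicate B (0.0644) or C (0.155), CEBPA V314VW replicate B (0.0596) or C (0.0653), or both-mutant replicate A (0.094), B (0.0991) or C (0.0963), all adjusted p. Without empty vector replicate C, which had the lowest Cybb of its group, the log2 fold change was 0.77.

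**Figure D2:**
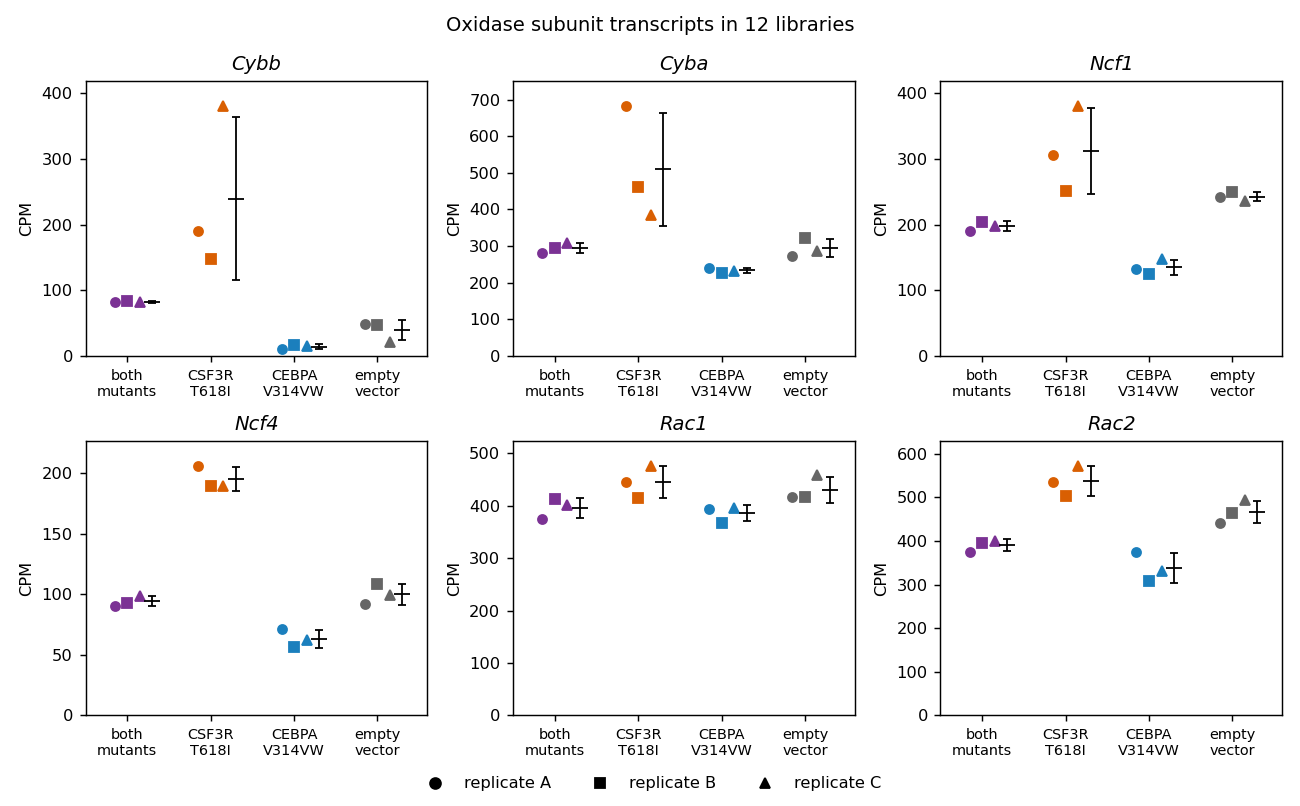
CPM of each subunit gene (vertical axes from 0) in 3 both-mutant, 3 CSF3R T618I, 3 CEBPA V314VW and 3 empty vector libraries; markers are replicates A, B and C, and the bar beside them is the mean with its SD. Cybb runs from 10.3 CPM in a CEBPA V314VW library to 381 CPM in a CSF3R T618I library, while Rac1 stays between 368 and 477 CPM.

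Cyba, which encodes the partner chain that stabilizes gp91phox, moved less. It was at 280.4, 295 and 309 CPM in both-mutant libraries, 682, 462 and 386 CPM in CSF3R T618I libraries, 240, 227 and 233 CPM in CEBPA V314VW libraries, and 274, 323 and 288 CPM in empty vector libraries. All CSF3R T618I libraries were above all others, and both-mutant libraries fell within the span of empty vector. Cyba rose 1.73-fold with CSF3R T618I against empty vector (log2 fold change 0.79, SE 0.164, adjusted p = 0.00419), and was lower with both mutants than with CSF3R T618I (log2 fold change -0.79, SE 0.164, adjusted p = 0.00458). Fitted on the 2 groups of each comparison alone, both calls were lost (adjusted p = 0.057 and 0.0521). Without CSF3R T618I replicate A, the library with the most Cyba, these log2 fold changes were 0.53 and -0.53 (adjusted p = 0.00335 and 0.00389). The log2 fold change was -0.34 for CEBPA V314VW against empty vector (adjusted p = 0.209) and 0.34 for both mutants against CEBPA V314VW (adjusted p = 0.198), and both passed with only the groups compared (adjusted p = 0.0235 and 0.00166) and without CSF3R T618I replicate A (adjusted p = 0.0214 and 0.0205), a library of neither comparison that enters the shared estimate of spread. For both mutants against empty vector it was 0.00, with a 95% interval of -0.35 to 0.36.

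Within the CSF3R T618I group the chains of the cytochrome differed in order. Cyba was highest in replicate A and lowest in replicate C, whereas Cybb was highest in replicate C and lowest in replicate B. Their transcripts differ in length, with a longest annotated transcript of 744 bases for Cyba and 4752 bases for Cybb. These libraries also differed in how level depended on transcript length: between the 10th and 90th percentile of length, short genes stood 0.75 log2 units above long ones in replicate A and 0.47 in replicate B, and 0.30 below in replicate C (-0.298). With each library's length trend taken out, Cyba was at 485, 369 and 456 CPM in CSF3R T618I libraries, against 332, 307 and 267 CPM with empty vector. Cybb was then at 224, 162 and 354 CPM, against 45.3, 46.7 and 22.3 CPM with empty vector. Replicate C thus kept the highest Cybb of the group. In the fit without the length trend, the Cyba differences above were smaller and still passed, at 0.53 for CSF3R T618I against empty vector (adjusted p = 0.00352) and -0.48 for both mutants against CSF3R T618I (adjusted p = 0.00747). In the same fit the lower Cyba of CEBPA V314VW against empty vector (log2 fold change -0.35) and the higher Cyba of both mutants against CEBPA V314VW (0.40) passed the test, with adjusted p = 0.0429 and 0.0209.

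The ratio of the chains' transcripts, Cyba over Cybb per kb of exon, differed between the groups. It was 19.3, 19.8 and 21.05 in both-mutant libraries and 20.1, 17.5 and 5.67 in CSF3R T618I libraries. It was 130.6, 74.7 and 83.8 in CEBPA V314VW libraries and 31.5, 38.7 and 74.2 in empty vector libraries. Every library with CSF3R T618I, alone or with CEBPA V314VW, lay below every library without it. CEBPA V314VW libraries all lay above empty vector libraries, narrowly at the nearest pair (74.7 against 74.2). Both-mutant and CSF3R T618I libraries overlapped in this uncorrected ratio, although both subunits were lower with both mutants. With the length trend taken out, Cyba was at 298, 306 and 334.5 CPM in both-mutant and 485, 369 and 456 CPM in CSF3R T618I libraries. Cybb was then at 79.2, 81.8 and 80.2 CPM, against 224, 162 and 354 CPM. In these levels Cyba stood higher relative to Cybb in every both-mutant library than in every CSF3R T618I library. The overlap therefore held only for levels that keep the trend. The ratio itself was not recomputed per kb without it.

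Ncf1 encodes the organizer subunit that, once phosphorylated, carries the cytosolic subunits to the membrane. It was at 190.5, 204.5 and 199 CPM in both-mutant libraries, 306, 251 and 381 CPM in CSF3R T618I libraries, 133, 124 and 148 CPM in CEBPA V314VW libraries, and 242.5, 249.5 and 235.6 CPM in empty vector libraries. Libraries with CEBPA V314VW, alone or with CSF3R T618I, were all below those without it. Against empty vector, CEBPA V314VW lowered Ncf1 (log2 fold change -0.85, SE 0.131, adjusted p = 0.000528), while the value for CSF3R T618I missed the threshold (log2 fold change 0.37, SE 0.130, adjusted p = 0.0684). That value passed with DESeq2 (adjusted p = 0.0465), with the length trend taken out (0.0435) and without CSF3R T618I replicate B (0.0136, log2 fold change 0.50), but not without replicate C (0.138, log2 fold change 0.20), and ran from 0.0136 to 0.212 over all alternatives. Ncf1 was higher with both mutants than with CEBPA V314VW (log2 fold change 0.55, SE 0.131, adjusted p = 0.0102) and lower than with CSF3R T618I (log2 fold change -0.66, SE 0.131, adjusted p = 0.00337). Both mutants against empty vector gave -0.29 (adjusted p = 0.143), which passed with only the groups compared (-0.31, adjusted p = 0.0044) and without CSF3R T618I replicate C (adjusted p = 0.0259).

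Ncf4 encodes the subunit that binds phosphoinositides on the phagosome and sustains oxidase activity there. It was at 90.7, 93.3 and 98.8 CPM in both-mutant libraries, 206.3, 189.5 and 189.7 CPM in CSF3R T618I libraries, 71.15, 56.15 and 62.65 CPM in CEBPA V314VW libraries, and 91.9, 109 and 99.2 CPM in empty vector libraries. Replicates were close in each group, and both-mutant and empty vector libraries overlapped. CSF3R T618I raised Ncf4 1.95-fold (log2 fold change 0.97, SE 0.105, adjusted p = 2.71e-05) and CEBPA V314VW lowered it (log2 fold change -0.66, SE 0.105, adjusted p = 0.000624), each against empty vector. With both mutants Ncf4 was higher than with CEBPA V314VW (log2 fold change 0.57, SE 0.105, adjusted p = 0.00176) and lower than with CSF3R T618I (log2 fold change -1.05, SE 0.105, adjusted p = 1.88e-05). The log2 fold change of both mutants against empty vector was -0.08, with a 95% interval of -0.31 to 0.14.

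The ratio of the cytosolic subunits' transcripts was lowest with CSF3R T618I. Ncf1 over Ncf4 per kb of exon was 0.817, 0.730 and 1.107 in CSF3R T618I libraries, against 1.46, 1.27 and 1.31 in empty vector libraries. With both mutants the ratio was 1.158, 1.209 and 1.109, and with CEBPA V314VW it was 1.03, 1.22 and 1.30. CSF3R T618I, both-mutant and empty vector libraries did not overlap one another in this ratio, although the gap between the first pair was small, and CEBPA V314VW libraries overlapped each of them. In CSF3R T618I replicates A, B and C the length trend was 0.295, 0.188 and -0.107 log2 units at Ncf4. At Ncf1 it was -0.0227, 0.00748 and 0.0384. With the trend taken out, Ncf1 relative to Ncf4 stayed lowest in CSF3R T618I and highest in empty vector libraries. CEBPA V314VW libraries then overlapped only the both-mutant ones. At the nearest libraries, Ncf1 and Ncf4 were at 130 and 66.2 CPM in CEBPA V314VW replicate A and at 311 and 168 CPM in CSF3R T618I replicate A. The ratio itself was not recomputed per kb without the trend.

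Of the Rac GTPases, Rac2 is the isoform restricted to blood cells and the main Rac of the neutrophil oxidase, whereas Rac1 is made in most cells. Rac2 was at 376, 396 and 401 CPM in both-mutant libraries, 535, 504 and 573 CPM in CSF3R T618I libraries, 374, 308 and 332 CPM in CEBPA V314VW libraries, and 442, 464 and 493 CPM in empty vector libraries. As with Ncf1, libraries with CEBPA V314VW were all below those without it. Rac2 fell with CEBPA V314VW against empty vector (log2 fold change -0.46, SE 0.0944, adjusted p = 0.00362) and with both mutants against CSF3R T618I (log2 fold change -0.46, SE 0.0944, adjusted p = 0.00424). The log2 fold change was 0.20 for CSF3R T618I against empty vector (adjusted p = 0.151), 0.21 for both mutants against CEBPA V314VW (adjusted p = 0.162) and -0.25 for both mutants against empty vector (adjusted p = 0.0769). The last of these passed with DESeq2 (adjusted p = 0.025), total counts (0.0277), only the groups compared (0.00993) and the length trend taken out (0.0387), and without CSF3R T618I replicate C (0.0369), CEBPA V314VW replicate A (0.0304) or CEBPA V314VW replicate B (0.0407), and ran from 0.00993 to 0.244 over all alternatives.

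Rac1 did not pass the test in any comparison. It was at 376, 413 and 401 CPM in both-mutant libraries, 445, 416 and 477 CPM in CSF3R T618I libraries, 393, 368 and 396 CPM in CEBPA V314VW libraries, and 416, 416 and 459 CPM in empty vector libraries. Its log2 fold changes lay between -0.17, for both mutants against CSF3R T618I (95% interval -0.36 to 0.02), and 0.05, for CSF3R T618I against empty vector (95% interval -0.14 to 0.24). The sign of this value turned with library totals in place of TMM (-0.06) and without CSF3R T618I replicate C (-0.0035, adjusted p = 0.981). With the length trend taken out, both mutants against CSF3R T618I passed for Rac1 (log2 fold change -0.26, adjusted p = 0.0471).

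Rac2 made up most of the Rac transcripts per kb of exon in 12 of 12 libraries, a level that rests on the Rac1 counts whose shared bases with Daglb are described above. Its share of Rac1 plus Rac2 was 59.2%, 58.2% and 59.2% in both-mutant libraries, 63.55%, 63.72% and 63.52% in CSF3R T618I libraries, 58.0%, 54.8% and 54.9% in CEBPA V314VW libraries, and 60.6%, 61.8% and 60.9% in empty vector libraries. No 2 groups overlapped in these shares, which keep each library's length trend. With the trend taken out, Rac1 and Rac2 were at 510 and 554 CPM in CSF3R T618I replicate A. In empty vector replicate A they were then at 396 and 442 CPM. In proportion, Rac2 thus stood less far above Rac1 in that CSF3R T618I library than in that empty vector library. The gap between these 2 groups therefore held only in levels that keep the trend. The share itself was not recomputed without it. In levels that keep the trend, the share was 2.50 percentage points higher with CSF3R T618I than with empty vector and fell by 5.22 points with CEBPA V314VW. It was 2.96 points higher with both mutants than with CEBPA V314VW, and the difference of both mutants was -4.76 points from CSF3R T618I and -2.26 points from empty vector. Each of the 5 pairs gave an exact two-sided permutation p of 0.1, also 0.1 after adjustment over the 5 pairs, which is the smallest p that 3 against 3 libraries can give. As plain counts, Rac2 exceeded Rac1 in 8 of 12 libraries, at 49.7% ± 0.618 with both mutants, 54.7% ± 0.114 with CSF3R T618I, 46.6% ± 1.83 with CEBPA V314VW and 52.0% ± 0.654 with empty vector (SD, n = 3). In single libraries the 95% Wilson intervals of these count shares, which cover counting error only, ran from 45.0% at the lowest bound to 55.2% at the highest.

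**Figure D3:**
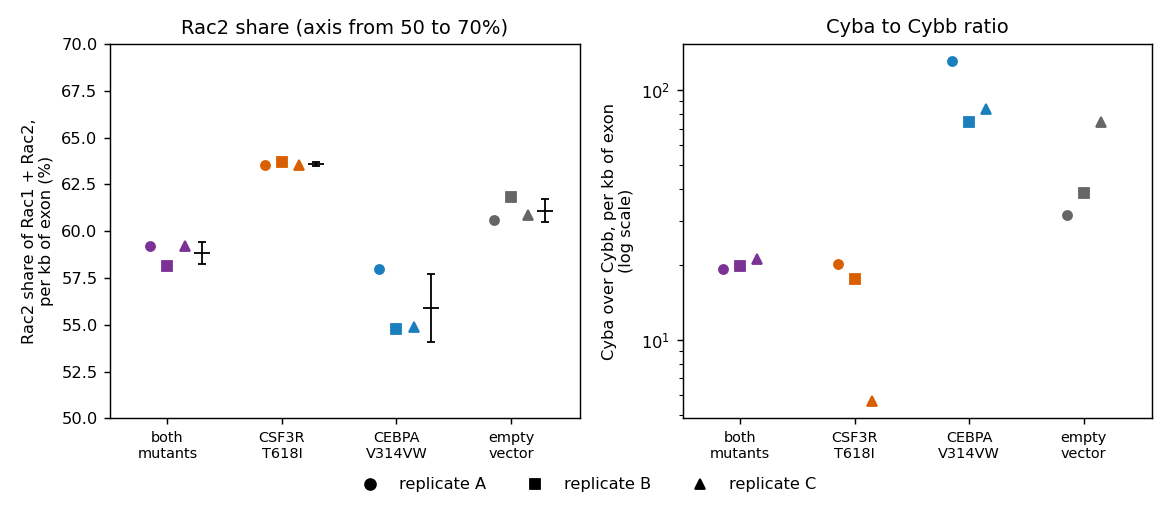
Left, Rac2 as a percentage of Rac1 plus Rac2 per kb of exon, on an axis from 50 to 70%, with mean and SD beside the libraries; right, Cyba over Cybb per kb of exon on a log axis. In these levels, which keep each library's length trend, the 4 groups do not overlap in Rac2 share. With the trend taken out, CSF3R T618I and empty vector libraries overlap in Rac2 relative to Rac1. All 6 libraries with CSF3R T618I have a Cyba to Cybb ratio below the 31.5 of the lowest library without it.

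Counted over the complex, CSF3R T618I against empty vector raised 3 of 6 members (Cybb, Cyba and Ncf4) and lowered 0, where 10.0% of the 16360 genes tested were higher and 19.7% passed in either direction. The median log2 fold change of the members was 0.58, beside 0.01 over all genes tested. CEBPA V314VW against empty vector lowered 4 of 6 (Cybb, Ncf1, Ncf4 and Rac2), where 7.68% of genes were lower and 17.2% passed in all. Here the median of the members was -0.56, beside 0.00 over all genes. Only Cybb changed by more than 1 log2 unit in either comparison, where 8.50% and 9.15% of genes did so.

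Adding CSF3R T618I to CEBPA V314VW raised 3 of 6 members (Cybb, Ncf1 and Ncf4), where 7.79% of genes were higher and 17.9% passed in all. Members had a median of 0.44, beside -0.02 over all genes, and Cybb alone rose by more than 1 log2 unit, where 8.54% of genes changed by as much. Fitted on these 2 groups alone, Cyba (adjusted p = 0.00166) and Rac2 (adjusted p = 0.049) passed too, which made 5 of 6. Both mutants against CSF3R T618I lowered 5 of 6, every member but Rac1, where 10.1% of genes were lower and 18.5% passed in all. That comparison had a median of -0.72, beside -0.02 over all genes, and 2 members, Cybb and Ncf4, fell by more than 1 log2 unit, where 8.69% of genes changed by as much. Both mutants against empty vector had 1 of 6 members higher, Cybb, with a background of 10.7% higher and 21.4% in all, and a median of -0.10, beside 0.01 over all genes. Cybb was past 1 log2 unit there too, with a background of 11.6%.

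Replicate ranges of the compared groups did not overlap for 5 of 6 members in CSF3R T618I against empty vector, where that held for 29.4% of all genes tested. They did not overlap for 6 of 6 in CEBPA V314VW against empty vector (35.2% of genes), 5 of 6 in both mutants against CEBPA V314VW (44.8%), 6 of 6 in both mutants against CSF3R T618I (35.2%), and 4 of 6 in both mutants against empty vector (45.2%).

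Whether the mutants acted on the subunits other than additively was asked with the interaction term, which subtracts the log2 effect of CSF3R T618I on empty vector from that on the CEBPA V314VW background. It passed for 0 of 6 members, where 1.77% of genes passed. For Cybb the term was -0.09, with a 95% interval of -1.15 to 0.97 (adjusted p = 0.951), which leaves room for a departure of up to about 1 log2 unit either way. Ncf4 had a term of -0.39 (95% interval -0.71 to -0.07, adjusted p = 0.31) and was the 1 member that passed 0.05 before adjustment in edgeR. For Cyba it was -0.45 (95% interval -0.96 to 0.05, adjusted p = 0.5). DESeq2 likewise called 0 of 6, and of the alternatives the fit without CSF3R T618I replicate C called 1, Cyba (-0.61, adjusted p = 0.0475). The Cyba term was nearer 0 without CSF3R T618I replicate A (-0.19, adjusted p = 0.834) and with the length trend taken out (-0.14, adjusted p = 0.725), which also brought the Ncf4 term to -0.22 (adjusted p = 0.494). Ncf1, Rac1 and Rac2 had terms of 0.19, -0.01 and 0.01, with 95% intervals of -0.21 to 0.59, -0.28 to 0.25 and -0.28 to 0.29.

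**Figure D4:**
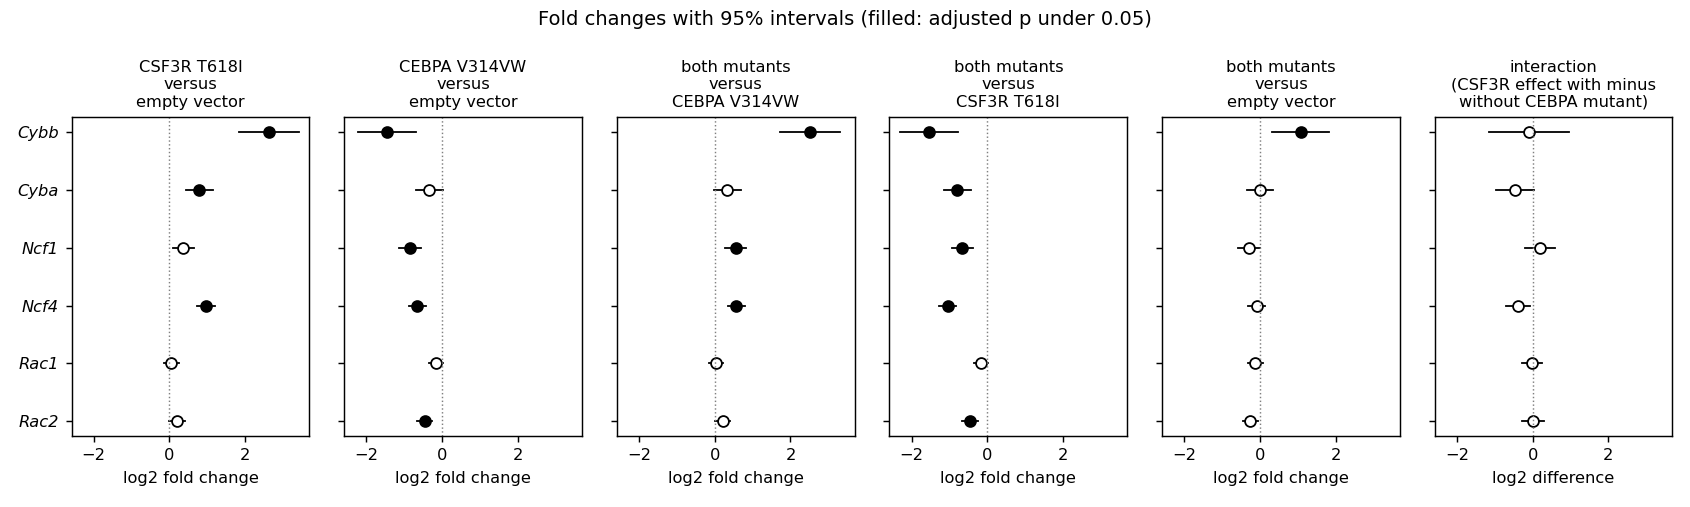
Log2 fold changes of the 6 subunit genes in 5 comparisons, the first-named group over the second, and the interaction term, with 95% intervals from the edgeR fit over 12 libraries; filled circles passed an adjusted p of 0.05. Cybb stands furthest from 0 in each of the 5 comparisons, Rac1 has an open circle throughout, and all 6 interaction terms are open.

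Neutrophil markers, like Cybb, were highest with CSF3R T618I and lowest with CEBPA V314VW, while both-mutant and empty vector libraries overlapped. Summed over 11 markers, all of them with counts in every group, they stood at 882, 1064 and 963 CPM in both-mutant libraries, 9165, 4124 and 4194 CPM in CSF3R T618I libraries, 137, 83.4 and 99.8 CPM in CEBPA V314VW libraries, and 450.1, 1025 and 476 CPM in empty vector libraries. Of these markers 8 of 11 rose and 0 fell with CSF3R T618I against empty vector, and 7 fell and 0 rose with CEBPA V314VW. With both mutants against empty vector, where Cybb passed as higher, 2 rose and 3 fell. Within groups, both-mutant libraries had the same order in markers and Cybb, B above C above A, but their Cybb had an SD of only 1.255% of its mean. Among empty vector libraries the markers were highest in replicate B and Cybb in replicate A (48.6 CPM, against 46.6 in B). Among CSF3R T618I libraries the markers were highest in replicate A and Cybb in replicate C, and among CEBPA V314VW libraries replicate A had the highest markers and the lowest Cybb. The sums keep each library's length trend, and short genes stood above long ones in replicate A of both these groups. Marker sums were not recomputed without the trend. The part of these marker differences in the Cybb result was not tested. Monocyte and macrophage markers, 10 in all and none at 0 in a group, had another order, with sums of 1303 to 1337 CPM in both-mutant, 367 to 626 CPM in CSF3R T618I, 673 to 899 CPM in CEBPA V314VW and 451 to 622 CPM in empty vector libraries. Gene by gene, 4 of these 10 rose and 1 fell with CSF3R T618I against empty vector (median log2 fold change 0.50), and 4 rose and 4 fell with both mutants (median -0.55), so sums and counts of this list differ in direction. Stem and progenitor sums were 397 to 408 CPM in both-mutant, 398 to 510.5 CPM in CSF3R T618I, 677 to 765.5 CPM in CEBPA V314VW and 861 to 1091 CPM in empty vector libraries, with 2 of 10 higher and 6 lower with CSF3R T618I and 6 higher and 2 lower with CEBPA V314VW, each against empty vector. Eosinophil, mast cell and megakaryocyte sums were highest with empty vector, and erythroid sums with CSF3R T618I (482 to 824 CPM, against 63.2 to 72.9 CPM with empty vector).

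**Figure D5:**
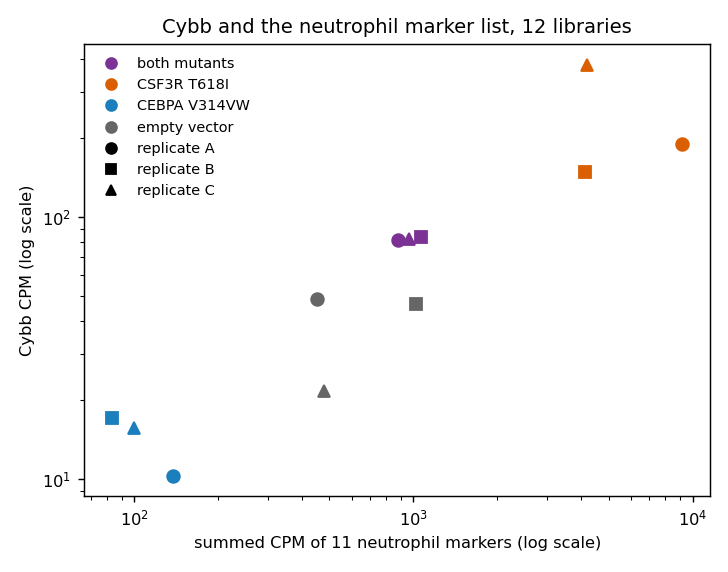
Cybb CPM against the summed CPM of 11 neutrophil markers in 12 libraries, both on log axes, colored by group with a marker shape for each replicate. CEBPA V314VW libraries lie lowest and CSF3R T618I libraries highest on both axes, while inside each of these groups the library with the most marker CPM is not the one with the most Cybb. Both axes keep each library's length trend.

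Genes around the oxidase were described by lists, with the number passing in each direction. These counts stand beside the 19.7% of all genes that passed with CSF3R T618I and the 17.2% with CEBPA V314VW, each against empty vector, and in lists of about 10 genes a count of 2 or 3 is near that share. Among 9 transcription factors of the Cybb promoter, 3 rose and 2 fell with CSF3R T618I against empty vector, and 2 rose and 3 fell with CEBPA V314VW. Spi1, which encodes PU.1, and Cebpb followed the subunits in direction with each single mutant against empty vector. Spi1 had log2 fold changes of 0.71 with CSF3R T618I (adjusted p = 0.000186) and -0.61 with CEBPA V314VW (adjusted p = 0.000588). For Cebpb they were 0.90 (adjusted p = 0.000252) and -1.25 (adjusted p = 1.93e-05). Both factors were higher with both mutants than with CEBPA V314VW (Spi1 0.51, adjusted p = 0.00216, and Cebpb 0.89, adjusted p = 0.000299). For each of them this rise was smaller than the fall with CEBPA V314VW against empty vector, whereas for Cybb it was larger. Irf8, a factor that cooperates with PU.1 in monocytes, went the other way with CSF3R T618I (log2 fold change -1.57, adjusted p = 3.77e-06). Cebpe, which drives late granulocyte genes, fell with CEBPA V314VW (-1.90, adjusted p = 8.31e-07) and fell further when CSF3R T618I was added to it (-1.19, adjusted p = 4.71e-05), a comparison in which Cybb rose.

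Of 6 genes of maturation, assembly and the proton channel, 1 rose and 1 fell with CSF3R T618I against empty vector: Rap1b, a small GTPase found with the cytochrome, with a log2 fold change of 0.39 (adjusted p = 0.00784), and Hvcn1, the proton channel that balances charge, with -0.73 (adjusted p = 0.0221). Rap1b fell with CEBPA V314VW (-0.37, adjusted p = 0.0111), the only gene of the list to pass there. BC017643, the chaperone of the cytochrome also called EROS, averaged 57.2 CPM with both mutants, 64.1 with CSF3R T618I, 53.4 with CEBPA V314VW and 52.7 with empty vector. Of 12 Rac exchange factors and GTPase-activating proteins, 0 rose and 6 fell with CSF3R T618I, with a median log2 fold change of -0.52. Tiam1, a Rac exchange factor, was among them (-1.12, adjusted p = 0.000233).

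Of 11 kinases that phosphorylate the cytosolic subunits or act before them, 1 rose and 1 fell with CSF3R T618I against empty vector, and 0 rose and 3 fell with CEBPA V314VW. Prkcb, the protein kinase C isoform known to phosphorylate p47phox in neutrophils, fell with CEBPA V314VW (log2 fold change -1.58, adjusted p = 2.23e-05) and was lower with both mutants than with CSF3R T618I (-1.34, adjusted p = 9.85e-05). Pik3r5, a regulator of phosphoinositide 3-kinase gamma, rose with CSF3R T618I (1.17, adjusted p = 0.000682) and fell with CEBPA V314VW (-0.71, adjusted p = 0.0195). Pik3cg, the catalytic subunit it regulates, fell with CSF3R T618I (-0.97, adjusted p = 0.0344).

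Receptors that trigger the oxidase had 4 of 10 higher and 0 lower with CSF3R T618I against empty vector, and 2 higher and 3 lower with CEBPA V314VW. C5ar1, the C5a receptor, averaged 1.75 CPM with both mutants, 15.5 CPM with CSF3R T618I, 1.29 CPM with CEBPA V314VW and 16.1 CPM with empty vector. It fell with CEBPA V314VW against empty vector (log2 fold change -3.64, adjusted p = 9.94e-05) and was low with both mutants, where Cybb was above empty vector. Fcgr1, a high-affinity IgG receptor, rose with both mutants against empty vector (2.44, adjusted p = 1.52e-07).

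Supply of NADPH and handling of its products varied gene by gene. Of 10 NADPH supply genes, 2 rose and 1 fell with CSF3R T618I and 0 rose and 3 fell with CEBPA V314VW, each against empty vector. G6pdx, the first enzyme of the pentose phosphate pathway, rose with CSF3R T618I (0.66, adjusted p = 0.0275), and Pgd, the next NADPH-forming enzyme, fell with CEBPA V314VW (-0.60, adjusted p = 0.000384). Of 13 genes that handle superoxide and peroxide, 3 rose and 1 fell with CSF3R T618I, and 1 rose and 3 fell with CEBPA V314VW. Sod2, the mitochondrial superoxide dismutase, rose with CSF3R T618I (0.72, adjusted p = 4.94e-05), whereas Mpo, the peroxidase of primary granules that uses the peroxide made from superoxide, fell (-1.17, adjusted p = 0.0112). Of 8 oxidant response genes, 5 rose and 0 fell with CSF3R T618I, and 0 rose and 4 fell with CEBPA V314VW. Hmox1, heme oxygenase, and Gclm, a subunit of the enzyme that starts glutathione synthesis, led the first comparison (1.41, adjusted p = 1.78e-05, and 1.18, adjusted p = 6.18e-07). Of 9 other NADPH oxidases and their partners, 2 passed the filter on low counts, and 3, Nox3, Nox4 and Duoxa1, had no count in any library. Nox1, the oxidase best known from colon, passed as higher with CEBPA V314VW than with empty vector, but at a mean of 0.433 against 0.0833 CPM.

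Genes whose pattern over the 12 libraries was nearest to that of a member were sought among the 9226 genes whose highest group mean reached 10 CPM, by the root mean square difference of log2 CPM centred on each gene's own mean. Nearest to Cybb were Siglece (0.38 log2 units), Hp (0.40), Gpr15 (0.41), Ppp1r3d (0.45) and Pirb (0.45). Hp, which encodes haptoglobin, averaged 229.0 CPM with both mutants, 762.6 CPM with CSF3R T618I, 58.4 CPM with CEBPA V314VW and 124.5 CPM with empty vector. Of the other subunits Ncf4 was nearest to Cybb, at 1.05 log2 units and rank 212 of 9226, before Ncf1 at rank 303 and Cyba at rank 407. The distance is not scaled, so it also grows where genes change in the same direction by different amounts. Every member had its highest mean with CSF3R T618I and its lowest with CEBPA V314VW. Cyba was nearest to Atp6v0b (0.08), Cd63 (0.09) and Ppp1r9b (0.12), and Ncf1 to Gas7 (0.10), Tank (0.13) and Phyh (0.14). Ncf4 was nearest to Ctdspl (0.11), Ccnd3 (0.11) and Gmpr (0.12), and Rac1 to Rab7, Tpm3 and Nae1 (0.04, 0.04 and 0.05). Riok3 (0.06) and Gmppb (0.07) were among the 3 genes nearest to Rac2. These distances describe likeness of level in 12 libraries that share 4 groups and carry no test.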

How the data were processed

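RNA-seq of 12 libraries (4 groups of 3) was used. The authors trimmed reads with Trimmomatic, aligned them with STAR to mm10 and tested with DESeq2, per the paper's methods and the submitters' processing notes. The deposited values are raw counts per gene, and 0 columns lacked a sample. For the counting program, its annotation and its use of strand, nothing is stated (not given in the sources used here). Symbols and coordinates are from GENCODE M21, and promoters from RefSeq.

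Counts were tested in R 4.3.3 with edgeR 4.0.16 (robust quasi-likelihood F test, TMM, default expression filter by group), in 1 model of both mutants and their interaction over all libraries. Adjustment for 16360 genes was by Benjamini-Hochberg, and genes passed at an adjusted p under 0.05. The study's threshold of an absolute log2 fold change over 1 is given beside it. Standard errors were the size of the log2 fold change divided by the root of the F statistic. With 3 libraries a group, p-values measure the spread between these replicates. Levels between genes were divided by the union of annotated exons. Shares of Rac2 were compared by exact permutation with scipy 1.17.1, and figures drawn with matplotlib 3.10.9. The fit was tested on simulated data.

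Alternatives were RLE and total-count scaling, no filter, DESeq2 1.42.0, limma 3.58.1 voom with a variance per group, only the groups compared, the replicate letter as a block, each library's trend with transcript length taken out (lowess, span 0.3), and leaving out each library.

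Members and lists were chosen with earlier results of these data known. Of each list, genes named had the largest absolute log2 fold changes among those that passed and whose highest group mean reached 10 CPM (at most 4 a comparison); genes given only as levels or as having no count were named for context after their values were seen. Nearest genes were the 5 closest to Cybb and 3 closest to each other member; 1 of those is not reported here.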

Additional observations from a re-analysis of the deposited data

How the results depend on the processing

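Each member's 6 values were recomputed under 8 other settings and without each of 12 libraries. Of 714 such values 650 kept direction and side of the threshold, 14 lost the call, 21 gained it, and 29 changed sign, none of which passed before or after. Sign changes were of values near 0. With library totals Rac1 was at -0.0596 (CSF3R T618I against empty vector), -0.0396 (both mutants against CEBPA V314VW) and 0.02 (interaction), and Cyba at -0.0369 (both mutants against empty vector), or -0.0177 with only the groups compared. The Rac1 interaction was 0.0055 with RLE, 0.0066 without a filter and 0.0056 with DESeq2. Over single libraries left out, the values whose sign turned ran from -0.0035 to 0.0992 (Rac1, CSF3R T618I against empty vector), -0.0619 to 0.0716 (Cyba, both mutants against empty vector), and, for the interaction, -0.343 to 0.419 (Cybb), -0.0573 to 0.0454 (Rac1) and -0.0367 to 0.101 (Rac2). The number of members passing moved mostly for both mutants against empty vector, from 1 to 2 with total counts, DESeq2 or the length trend taken out, 3 with only the groups compared, 0 without a filter, and 0 to 3 over libraries left out (3 without CSF3R T618I replicate C). It was 5 for both mutants against CEBPA V314VW with only the groups compared, and 0 to 1 for the interaction over libraries left out. With the replicate block it was 0 for both mutants against empty vector, as Cybb lost the call (log2 fold change 1.06, adjusted p = 0.0867); the block changed no other member call. Of 18 correlations between the deviations of libraries of equal letter, 2 were over 0.1 (-0.349 to 0.285). These values cannot tell whether equal letters share an animal or culture, which stays unknown. Genes passing, of all tested, moved by more than 1.5 times for CSF3R T618I against empty vector (3217, against 2051 with voom, 1702 with only the groups compared and 6399 without CSF3R T618I replicate C), both mutants against CEBPA V314VW (2926, against 4696 with only the groups compared), both mutants against CSF3R T618I (3025, against 2013 with only the groups compared, 6666 without CSF3R T618I replicate C and 1934 without both-mutant replicate A) and the interaction (289, against 626 with DESeq2, 177 with the block and 153 to 1745 over libraries left out). Library totals moved the median of all genes by -0.11 log2 units for CSF3R T618I against empty vector, where 1231 genes were then higher and 2462 lower, against 1636 and 1581 with TMM. The splits were 1052 and 2144, against 1274 and 1652, for both mutants against CEBPA V314VW, and 1865 and 1283, against 1379 and 1646, for both mutants against CSF3R T618I. Differences in Rac2 share kept their direction as plain counts and without any 1 library, which could not have come out otherwise. Fixed exon lengths leave the order of libraries unchanged, and groups that do not overlap keep their direction when a library is left out. The share was not recomputed with the length trend taken out, but levels without it closed the gap between CSF3R T618I and empty vector. Cybb in CEBPA V314VW libraries, at 513 to 843 reads, was the member value with the least depth.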
